A study of Gasterosteus aculeatus with 34 samples.

Results

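A male threespine stickleback that is holding a territory can meet a rival, a female, or both at once. The comparison described here is the one between males that last saw both (the tradeoff) and males that last saw a rival only (the territorial challenge), so that the female is what was added. It comprised 18 of the 34 libraries of the study, from the telencephalon and the diencephalon of 4 tradeoff males (302, 306, 321 and 323) and 5 challenge males (298, 317, 318, 322 and 330). The libraries were chosen by the treatment named in their labels, not by any measured value.

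All of the males were of the white ecotype of Gasterosteus aculeatus, bred in the laboratory from fish caught in the wild, and were kept at 20 °C under 16 hours of light and 8 of darkness. In the tradeoff, a gravid female was confined to one flask in the tank and a rival male in breeding colour to another. In the challenge the rival was in one of the flasks and no female was shown. Control males (4), which saw empty flasks, and courtship males (4), which saw a gravid female only, are used below for context. Each male of every group went through 8 trials that included every treatment. The groups are set by the treatment of the final trial, 60 minutes before dissection. Males of all groups thus met every treatment, and the stimulus fish could not leave their flasks. The order of the earlier trials was not used here. The sources used here give no age for the males.

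The telencephalon of fish contains areas that correspond to the amygdala and hippocampus of mammals, and is known for its part in the evaluation of social stimuli. The diencephalon holds the preoptic and hypothalamic nuclei, whose neuropeptide and steroid-sensitive cells govern courtship, aggression and the release of pituitary hormones. Both belong to the network of forebrain areas that handles social behaviour in vertebrates, and a sudden social encounter is known to change transcription in such areas within an hour.

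The deposited counts name their genes by identifier alone, and none of the 22295 gene models (0) could be matched to a gene symbol in the RefSeq table of 52177 genes for this species. Genes are therefore given by identifier with no role attached, and known marker genes of neurons, glia, blood or pituitary could not be looked up. Gene models received 24505411 to 31751131 counts in the 9 telencephalon libraries and 16522465 to 34384860 in the 9 diencephalon libraries. Levels of single genes are given as CPM, a gene's counts relative to the effective size of the library, and each male gave 1 library per region. In tissue of this kind, fewer cells of a type and less RNA per cell cannot be told apart.

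Since names were lacking, the regional identity of the libraries was checked with genes defined on control and courtship males only. Of these, 62 genes were over 4-fold higher in the telencephalon and 132 over 4-fold higher in the diencephalon in at least 7 of the 8 males. Each library was also placed on a scale built on all gene models with a mean of at least 1 CPM, not on these sets. On this scale the control and courtship males average 0 for the diencephalon and 1 for the telencephalon. On it the diencephalon libraries of the tradeoff males lay at -0.0245 to 0.0485 and those of the challenge males at -0.0405 to 0.0677. The telencephalon libraries of the tradeoff males lay at 0.986 to 1.09. Among the challenge males, 3 telencephalon libraries lay at 1.17 to 1.19, while those of males 298 and 322 lay at 0.826 and 0.804. The summed level of the 132 diencephalon genes was 1937 and 2401 CPM in the telencephalon of males 298 and 322, against 480 to 553 CPM in the other challenge males. Tradeoff male 321 had 3298 CPM and the other tradeoff males 598 to 782 CPM. The median of these genes was 2.07 CPM in male 321, close to the 1.84 to 1.98 CPM of the other tradeoff males, so its high sum was not shared by most of the genes. In male 322 the median was 8.47 CPM, against 1.24 to 3.27 CPM in the other challenge males. Of the males used for context, control male 304 stood apart, at 0.47 in the telencephalon and 0.109 in the diencephalon. This male is among those whose average sets the scale. For the scale and the gene sets of this check, CPM were relative to the total gene counts of a library, not its effective size.

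**Figure D1:**
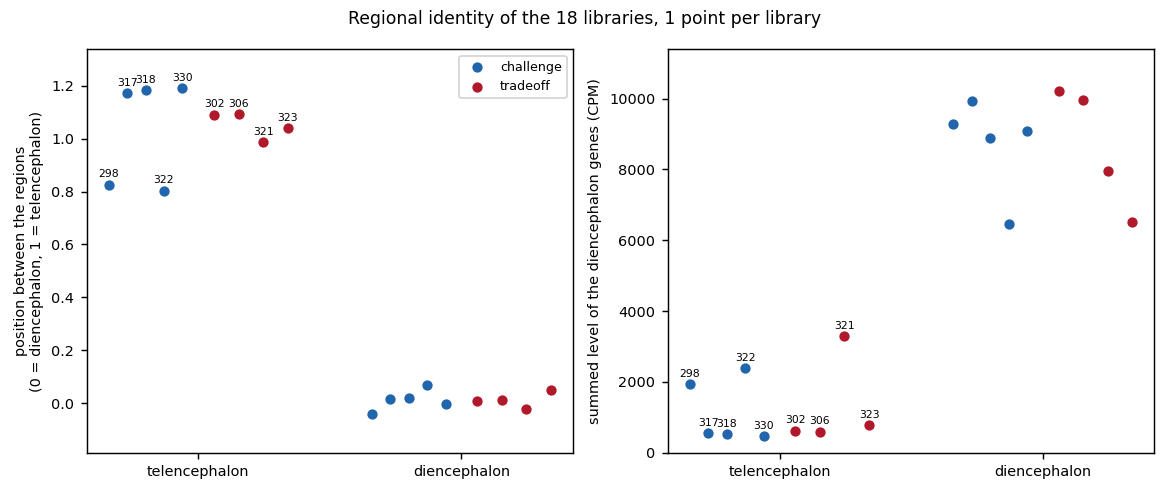
Position of each library on the scale that runs from 0, the average diencephalon, to 1, the average telencephalon of control and courtship males (left) and summed level in CPM of 132 diencephalon genes (right), 1 point per library, with male numbers at the telencephalon libraries. The telencephalon libraries of challenge males 298 and 322 lie at 0.826 and 0.804, below the other 7.

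No measure of the whole library passed a test between the groups. The difference of means was tested for 8 measures in each region (shares of reads assigned to genes, outside features, ambiguous or not unique, share of chrY models, share of the 100 most abundant genes, models detected, and the position between regions). The lowest of the 16 p-values was 0.206, for the number of gene models detected in the telencephalon (exact permutation test, two-sided; Benjamini-Hochberg adjusted p = 0.984). With 4 and 5 males, 1 measure alone could not pass after adjustment even if it separated the groups fully, so like libraries are not shown. Spread was not tested: the position of the telencephalon libraries had an SD of 0.201 in challenge males and 0.0507 in tradeoff males. Gene models of chrY, the chromosome that only male sticklebacks carry, took 1.48% ± 0.0335 of gene counts in the telencephalon of tradeoff males (SD, n = 4) and 1.48% ± 0.0456 in challenge males (n = 5). In the diencephalon their share was 1.32% ± 0.0717 and 1.29% ± 0.0505.

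In the telencephalon, edgeR detected no gene that differed between tradeoff and challenge males once all genes were taken into account. Of 18277 genes tested, 0 (0%) passed an adjusted p of 0.05 in edgeR's quasi-likelihood test, 629 (3.44%) had an unadjusted p under 0.05, and the lowest adjusted p was 0.9997. Of those 629 genes, 265 were higher (1.45% of the genes tested) and 364 lower (1.99%) in the tradeoff males. Where no gene differs, about 0.05 of the genes tested in any such comparison would be under this unadjusted threshold. DESeq2 called 2 genes and limma voom 0. The values of all 4 tradeoff males lay above all 5 challenge males in 84 genes (0.46%) and below them in 103 (0.564%), which makes 187 genes with separate groups (1.02%). Some genes separate 4 from 5 males in this way by chance alone, here and in the counts below. The share so expected was not worked out. Without challenge males 298 and 322, 0 genes passed and 965 had an unadjusted p under 0.05. The low-count filter was applied anew there, and the rise from 629 was not tested.

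Among genes with a mean of 1 CPM or more, ENSGACG00000014858 gave the lowest p of those with higher values in the telencephalon of tradeoff males. It stood at 18.2 CPM in male 302 and 26.8 CPM in male 306, but at 0.546 and 0.248 CPM in males 321 and 323. In the challenge males it ran from 0.162 to 1.16 CPM, so that the groups overlapped and 2 of the 4 tradeoff males lay above every challenge male (log2 fold 4.22, SE 0.997, adjusted p = 0.9997 by edgeR). The log2 fold was 3.36 without male 306 and 2.71 in limma voom. Telencephalon means of the challenge, courtship and control males were 0.617, 0.660 and 0.898 CPM. The gene thus met the rule of 1 CPM there only through males 302 and 306, where it was high. The diencephalon held the same pair of high males, with 15.4 and 19.7 CPM in males 302 and 306, 0.763 and 0.813 CPM in the other tradeoff males and 0.553 to 2.06 CPM in the challenge males (log2 fold 2.87 and SE 0.744, with an adjusted p of 0.9998 by edgeR). No control or courtship male exceeded 1.34 CPM in the former region or 1.59 CPM in the latter. Over the 17 males of the study, this gene was thus high in both regions of males 302 and 306 and low in both regions of the other 15.

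ENSGACG00000011102 was a low gene whose telencephalon values were separate between the groups. The tradeoff males had 3.13, 3.12, 3.79 and 3.34 CPM (males 302, 306, 321 and 323) and the challenge males 1.69 to 2.35 CPM (log2 fold 0.78, SE 0.199, adjusted p = 0.9997 by edgeR). Control males (1.69 to 2.91 CPM) and courtship males (1.79 to 2.45 CPM) also lay below all tradeoff males. In the diencephalon the tradeoff males had 3.45 to 3.95 CPM and the challenge males 2.89 to 4.18 CPM, and the groups overlapped.

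Of the genes with lower values in the telencephalon of tradeoff males, ENSGACG00000000639 had the lowest p. Its values were 4.01, 5.13, 3.94 and 3.88 CPM in tradeoff males 302, 306, 321 and 323 and 5.601 to 8.08 CPM in the challenge males (log2 fold -0.66, SE 0.15, edgeR adjusted p = 0.9997). The groups did not overlap there. Control males, at 5.15 to 6.04 CPM, and courtship males, at 5.13 to 7.13 CPM, overlapped the lower challenge males, and their lowest libraries lay close to tradeoff male 306. In the diencephalon, where the gene was higher in every group, tradeoff males had 10.9 to 13.0 CPM and challenge males 11.9 to 14.8 CPM, with overlap.

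ENSGACG00000015999 was next in this direction, at 7.80, 11.99, 11.4 and 9.86 CPM in tradeoff males 302, 306, 321 and 323. Challenge males had 13.4 to 17.6 CPM, above all of these (log2 fold -0.56, SE 0.132, edgeR adjusted p = 0.9997). The controls, at 10.4 to 13.4 CPM, spanned the gap between the groups, and the courtship males, at 12.2 to 15.6 CPM, lay above the tradeoff males and overlapped the challenge males. The diencephalon groups overlapped, at 11.7 to 15.4 CPM after the tradeoff and 13.4 to 20.4 CPM after the challenge.

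In the diencephalon the result was the same in number. Of 18399 genes tested, 0 (0%) passed an adjusted p of 0.05 in edgeR and 650 (3.53%) had an unadjusted p under 0.05. Of these, 332 were higher (1.8% of the genes tested) and 318 lower (1.73%) in the tradeoff males. DESeq2 called 1 gene and limma voom 0. The groups did not overlap in 97 genes with higher tradeoff values (0.527%) and 84 with lower ones (0.457%), or 181 in all (0.984%). Without challenge males 298 and 322, 0 genes passed and 538 had an unadjusted p under 0.05.

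ENSGACG00000018784 had the lowest p of the diencephalon and was the gene that DESeq2 called there. It was lower in the tradeoff males, at 1.10, 0.584, 0.763 and 0.929 CPM (males 302, 306, 321 and 323), than in the challenge males, at 3.10, 1.90, 2.47, 2.40 and 1.97 CPM (males 298, 317, 318, 322 and 330). These values rest on 15 to 24 counts in the tradeoff libraries and 39 to 86 in the challenge libraries. The log2 fold was -1.50 (SE 0.291, edgeR adjusted p = 0.9998; DESeq2 adjusted p = 0.0265), and under the 17 alternatives its adjusted p was between 0.0265 and 1. The telencephalon groups were also separate, at 0.586 to 0.849 CPM after the tradeoff and 1.16 to 2.35 CPM after the challenge (log2 fold -1.18, SE 0.458, adjusted p = 0.9997 by edgeR). In the telencephalon the ranges of control males (0.563 to 2.50 CPM) and courtship males (0.590 to 2.84 CPM) overlapped both groups. In the diencephalon they lay above the tradeoff males, at 1.31 to 2.52 and 1.21 to 2.74 CPM.

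ENSGACG00000007675 was also lower in the diencephalon of tradeoff males. Its values there were 5.92, 6.04, 6.71 and 5.89 CPM in males 302, 306, 321 and 323, a narrow range, and 7.13 to 12.8 CPM in the challenge males (log2 fold -0.79, SE 0.172, adjusted p = 0.9998 by edgeR). In the telencephalon the groups overlapped widely, at 1.70 to 4.45 and 1.58 to 5.50 CPM, with a log2 fold of 0.02 (SE 0.417). When a female was shown without a rival, the diencephalon values differed with the opposite sign, at 8.07 to 12.9 CPM in courtship males and 5.55 to 8.44 CPM in controls (log2 fold 0.59, SE 0.179). In the telencephalon the corresponding log2 fold was 0.20 (SE 0.438).

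The genes with the lowest p among those higher in the diencephalon were more abundant and differed by less. ENSGACG00000008120 was at 56.3, 53.4, 60.5 and 56.8 CPM in tradeoff males 302, 306, 321 and 323 and at 39.8 to 49.2 CPM in the challenge males, with no overlap (log2 fold 0.30, SE 0.0791, edgeR adjusted p = 0.9998). Controls and courtship males reached 54.0 and 55.2 CPM. In the telencephalon the groups overlapped, at 38.9 to 44.9 and 34.5 to 46.0 CPM.

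ENSGACG00000014520 stood at 47.3, 43.7, 54.9 and 58.7 CPM in the diencephalon of males 302, 306, 321 and 323 and at 32.6 to 41.9 CPM in the challenge males (log2 fold 0.46, SE 0.121, edgeR adjusted p = 0.9998). The controls, at 33.5 to 52.0 CPM, overlapped both groups. In the telencephalon its levels were lower and the groups overlapped, at 9.61 to 18.1 and 8.40 to 17.9 CPM.

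**Figure D2:**
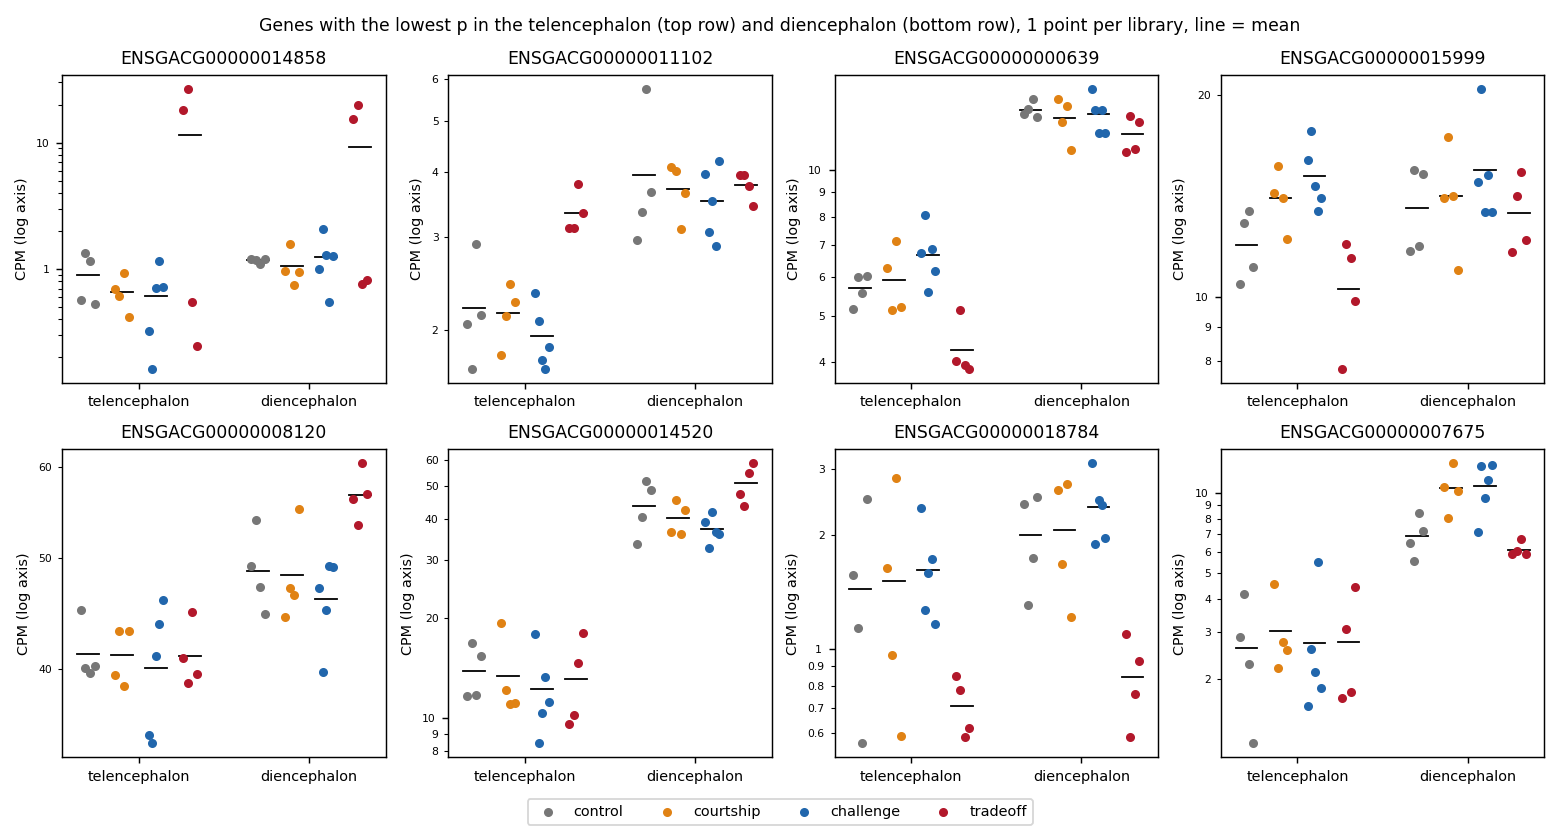
CPM on a log axis of the 2 genes of each direction with the lowest p among genes of at least 1 CPM in the telencephalon (top) and the diencephalon (bottom), by region and group, 1 point per library with the arithmetic mean as a line. ENSGACG00000014858 is high in both regions of 2 tradeoff males (18.2 and 26.8 CPM in the telencephalon), while the points of ENSGACG00000018784 lie lower in all tradeoff males than in all challenge males of the same region.

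The precision of the comparison varied with abundance. In the telencephalon, 16437 genes averaged 1 CPM or more, and the 95% interval of the fold change stayed inside 2-fold in either direction for 89.4% of them. In the diencephalon this held for 94.6% of 17014 genes. Among telencephalon genes the share was 71.2% of 5109 at 1 to 10 CPM and 97.5% of 9227 at 10 to 100 CPM. Diencephalon genes gave 83.8% of 4887 and 99.0% of 10151. The median size of the log2 fold was 0.08 in each region over all genes of at least 1 CPM, and 0.05 in each region over genes above 100 CPM.

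Large fold changes were few, and most did not stay past 2-fold when each male was left out in turn. In the telencephalon 177 genes of at least 1 CPM had a fitted fold over 2, with 89 higher and 88 lower in the tradeoff males, and 153 of them (86.4%) had a mean under 10 CPM. The groups were separate in 12 of the 177 (6.78%, against 1.02% of all genes tested), a share that choice by fold in the same comparison raises. In 143 (80.8%) the fold dropped to 2 or less, changed sign or could no longer be tested once some 1 male was left out, and 34 stayed over 2-fold whichever male was left out. A gene just past 2-fold needs only a small shift to be counted among the 143. Leaving out challenge male 322 took away 44 of the 88 lower genes, and leaving out tradeoff male 323 took away 29 of the 89 higher ones. In the diencephalon 100 genes were over 2-fold, with 41 higher and 59 lower, of which 3 had separate groups (3%, against 0.984% of all genes tested) and 19 stayed over 2-fold whichever male was left out. There, 27 of the 59 lower genes were no longer past 2-fold without challenge male 298, and 16 and 15 of the 41 higher ones without tradeoff males 323 and 302.

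**Figure D3:**
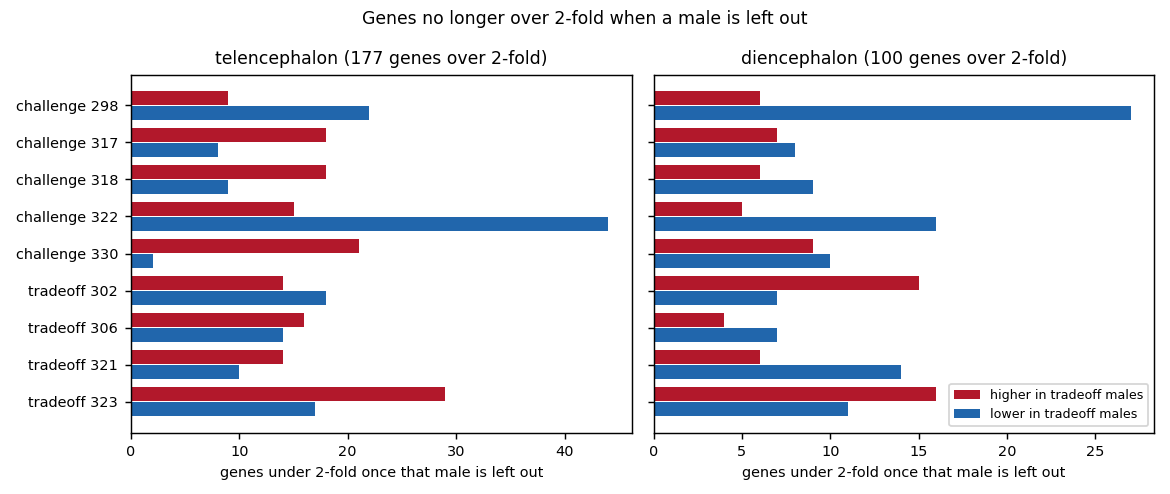
Number of genes over 2-fold between tradeoff and challenge males that no longer exceeded 2-fold when a given male was left out, by direction, for 177 telencephalon and 100 diencephalon genes of at least 1 CPM. The longest bars are those of genes lower in tradeoff males without challenge male 322 in the telencephalon (44) and without challenge male 298 in the diencephalon (27).

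Classes of gene model were compared in place of gene lists. Of 444 chrY models tested in the telencephalon, 0 passed the adjusted threshold, 5 were higher and 1 lower at an unadjusted p under 0.05 (1.35%, against 3.44% of all genes tested), and the median log2 fold was 0.01. In the diencephalon 0 of 440 chrY models passed, 4 were higher and 3 lower (1.59%, against 3.53% of all genes). Predicted models outside chrY gave 5 higher and 4 lower of 279 in the telencephalon (3.23%, against 3.44% of all genes). In the diencephalon they gave 5 and 5 of 276 (3.62%, against 3.53% of all genes). Reads of chrY models that resemble a copy on another chromosome could be divided or dropped in counting, so their values are uncertain.

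As each male is 1 replicate, the counts of both regions of a male were next added. Of 19136 genes, 0 (0%) passed an adjusted p of 0.05 in edgeR, 639 (3.34%) had an unadjusted p under 0.05, and DESeq2 and limma voom called 0 and 0. Tradeoff values were the higher ones in 339 of the 639 (1.77% of the genes tested) and the lower ones in 300 (1.57%). The groups were separate in 190 genes (0.993%), 105 of them with higher (0.549%) and 85 with lower tradeoff values (0.444%). The genes with the lowest p in the sums included ENSGACG00000014858 (log2 fold 3.50, SE 0.804, edgeR adjusted p = 0.9999) and ENSGACG00000018784 (log2 fold -1.35, SE 0.335), described above.

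ENSGACG00000020760 was the other gene of this kind with higher values in the tradeoff males. In the diencephalon it was at 20.7, 18.2, 25.2 and 18.8 CPM in males 302, 306, 321 and 323 and at 10.6 to 16.8 CPM in the challenge males, with no overlap. Controls, at 13 to 22.4 CPM, and courtship males, at 9.795 to 20.3 CPM, overlapped both groups there. In the telencephalon the values were 6.69 to 9.49 and 4.49 to 8.44 CPM, and the groups overlapped. Over both regions its log2 fold was 0.49 (SE 0.121, edgeR adjusted p = 0.9999). ENSGACG00000008727 had lower values in the tradeoff males, at 1.37 to 2.03 CPM against 2.31 to 4.42 CPM in the diencephalon, and was too low in the telencephalon to be tested there (log2 fold in the sums -0.94, SE 0.232, edgeR adjusted p = 0.9999). Its diencephalon values were 1.39 to 2.31 CPM in controls, which overlapped the tradeoff males, and 2.135 to 2.515 CPM in courtship males.

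The fold changes of the regions were then compared. Over the 16261 genes that averaged 1 CPM or more in each region, the log2 fold changes between tradeoff and challenge males correlated with a Pearson r of 0.373 and a Spearman rho of 0.352. The r ran from 0.268 to 0.518 with 1 male left out. Both values describe genes, which are not replicates, and the 2 regions come from the same 9 males, so that differences between males which last across regions cannot be told apart from an effect of the treatment in both. The direction was the same in the regions for 62.5% of all 16261 genes. Of these genes, 556 were under 0.05 by unadjusted p in the telencephalon, 530 were so in the diencephalon, and 92 in both (16.5% of the former and 17.4% of the latter). Over all genes tested, such a p was held by 3.53% in the diencephalon and 3.44% in the telencephalon. Of the 92, 47 were higher in both regions of the tradeoff males, 44 were lower in both and 1 differed in direction. The groups were separate in both regions in 7 genes, all with the same direction (4.43% of the 158 such genes of the telencephalon and 4.52% of the 155 of the diencephalon). Over all genes tested, separate groups made up 0.984% in the diencephalon and 1.02% in the telencephalon.

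**Figure D4:**
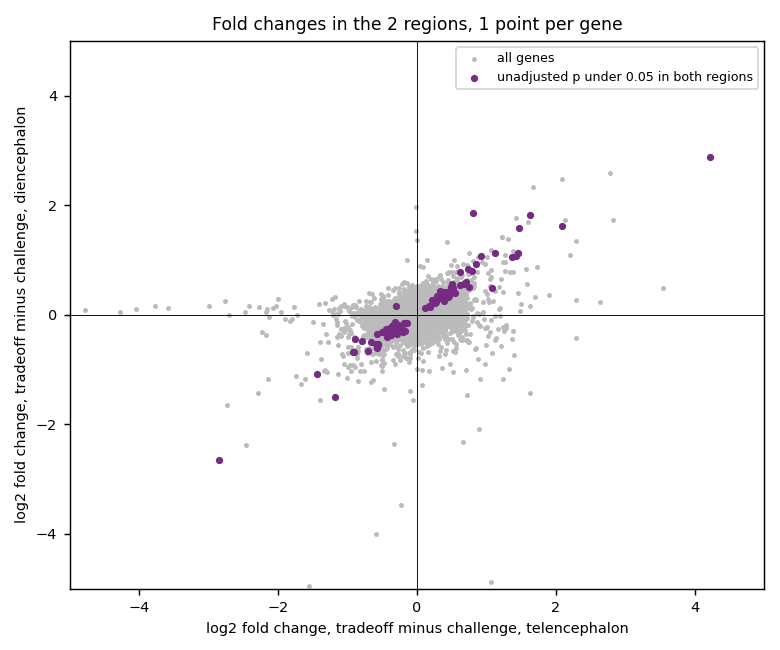
Log2 fold change between tradeoff and challenge males in the telencephalon (x axis) and the diencephalon (y axis), 1 point per gene for 16261 genes, of which 1 lies outside the axes. The 92 genes with an unadjusted p under 0.05 in both regions are coloured, and 91 of them lie in the quadrants of equal direction.

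ENSGACG00000017266, one of those 7 genes and chosen after its values were seen, had the largest difference among them. It was at 4.61 to 17.0 CPM in the telencephalon of challenge males and at 0.0825 to 3.94 CPM in tradeoff males (log2 fold -2.85, SE 0.821, adjusted p = 0.9997 by edgeR). In the diencephalon the ranges were 5.29 to 21.4 and 0.426 to 4.63 CPM (log2 fold -2.65, SE 0.833). Courtship males also ran low in the telencephalon, at 0.355 to 4.22 CPM, where controls had 3.18 to 8.29 CPM. In the diencephalon courtship males spread from 0.232 to 10.5 CPM and controls from 4.83 to 17.7 CPM. ENSGACG00000016827, chosen in the same way, was higher in both regions of tradeoff males, at 16.4 to 19.1 against 11.1 to 15.4 CPM in the telencephalon and 11.1 to 14.4 against 10.1 to 10.6 CPM in the diencephalon.

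Whether the difference between tradeoff and challenge males itself differed between the regions was tested as an interaction. The main fit had no block for the male. In edgeR 0 of 18923 genes (0%) passed an adjusted p of 0.05 and 259 (1.37%) had an unadjusted p under 0.05, with 109 above 0 (0.576%) and 150 below 0 (0.793%). With the male as a block, 0 genes passed and 507 had an unadjusted p under 0.05. Without this block, DESeq2 called 4 genes and limma voom 0. The interaction values of the genes named by rule below come from the main fit, which does not use the pairing of libraries by male.

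ENSGACG00000011390 had the lowest p of the interaction among genes with a mean of 1 CPM or more over the 34 libraries. In the telencephalon alone every group averaged under 1 CPM. In the telencephalon tradeoff males were lower, at 0.154, 0.162, 0.390 and 0.206 CPM (males 302, 306, 321 and 323) against 0.327 to 0.883 CPM in the challenge males. These values rest on 4 to 10 counts in the tradeoff libraries and 9 to 25 in the challenge libraries. In the diencephalon tradeoff males had 2.24 to 2.79 CPM against 1.54 to 2.38 CPM in challenge males. The log2 fold of the telencephalon minus that of the diencephalon was -1.87 (SE 0.498, edgeR adjusted p = 0.9999), and the groups overlapped in each region. ENSGACG00000013852 was likewise low in the telencephalon, at 0.227 to 0.625 CPM after the tradeoff and 0.584 to 1.85 CPM after the challenge, and its interaction was -1.65 (SE 0.508). Its telencephalon values rest on 6 to 16 counts after the tradeoff and 18 to 46 after the challenge. Its diencephalon values were 2.41 to 5.29 and 2.95 to 4.40 CPM. The highest telencephalon values of the challenge group were those of males 298 (1.70 CPM) and 322 (1.85 CPM), and control male 304 had 1.86 CPM. Without males 298 and 322 the interaction was -1.05.

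In the other direction, ENSGACG00000009332 was at 3.59 to 5.79 CPM in the telencephalon of tradeoff males and at 2.56 to 3.85 CPM in challenge males. Its diencephalon values were 3.45 to 4.42 and 3.83 to 4.61 CPM, and the interaction was 0.72 (SE 0.214, edgeR adjusted p = 0.9999). For ENSGACG00000019272 the telencephalon groups were separate, at 8.51 to 10.5 CPM after the tradeoff and 6.08 to 8.39 CPM after the challenge. Its diencephalon values, 7.07 to 8.94 and 7.80 to 12.2 CPM, overlapped (interaction 0.62, SE 0.184).

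The other genes that DESeq2 called were named after their values had been seen, and libraries at or near 0 counts mark all of them (CPM on the scale of all 34 libraries). ENSGACG00000002871 stood in challenge male 318 at 37.2 CPM (telencephalon) and 30.9 CPM (diencephalon). Every other telencephalon library of both groups had 0 counts of it, and the other diencephalon libraries had 0 to 0.649 CPM. Of the courtship males, 2 were as high, at 36.4 and 35.6 CPM in the telencephalon, so this level also occurred where no rival was shown.

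ENSGACG00000008991 was called in the telencephalon and in the interaction. Its diencephalon levels were 11.4 to 20.7 CPM over the 9 males, but in the telencephalon only challenge males 322 (8.22 CPM) and 298 (0.760 CPM) of the 9 had any counts. Control male 304 had 8.77 CPM there, and the other controls and courtship males had 0 to 0.038 CPM. Those 3 libraries are the ones that lay towards the diencephalon, and the part of that position in the call was not tested. Neither ENSGACG00000002871 nor ENSGACG00000008991 passed the filter on low counts in the telencephalon.

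The other calls of the interaction were ENSGACG00000007182, ENSGACG00000014956 and ENSGACG00000015274. ENSGACG00000007182 was at 28.9 CPM in the diencephalon of challenge male 298 and at 2.04 CPM in that of male 322, and at no more than 0.22 CPM in the other 7 males. All 5 challenge males had 0 counts of it in the telencephalon, as did 3 of the 4 tradeoff males. Control male 308 had 4.56 CPM and courtship male 299 had 2.09 CPM there. ENSGACG00000014956 was even in the diencephalon, at 11.5 to 15.4 CPM over the 9 males, and reached at most 0.0409 CPM in their telencephalon. Of the same 9 males, ENSGACG00000015274 had 2.97 to 6.91 CPM in the diencephalon and was counted in only 1 telencephalon library, that of tradeoff male 302 (0.0415 CPM). Control male 304 had 5.33 CPM of ENSGACG00000014956 and 3.08 CPM of ENSGACG00000015274 in the telencephalon. The fitted folds of these genes are set by libraries at 0 and are no measure of size.

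A female was also added where there was no rival, in the courtship males, and their difference from the controls rests on other libraries. Of 564 telencephalon genes of at least 1 CPM with an unadjusted p under 0.05 between tradeoff and challenge males, 269 (47.7%) had the same direction between courtship and control males, against 51.1% of all 16437 genes. In the diencephalon the numbers were 296 of 587 (50.4%), against 53.0% of 17014. An unadjusted p under 0.05 in both comparisons was found in 29 of the 564 telencephalon genes, 10 of them with the same direction. These are 5.14%, where 392 of all 16437 genes (2.38%) had such a p between courtship and control males. In the diencephalon it was found in 29 of 587 genes (4.94%, against 380 of all 17014 or 2.23%), 12 of them with the same direction. The tests of both comparisons share an estimate of each gene's spread. Over genes, the Spearman rho between the 2 sets of log2 fold changes was 0.03 for telencephalon values and 0.04 for diencephalon values. Pearson's r was 0.10 over the 16437 telencephalon genes and -0.20 over the 17014 diencephalon genes, so the diencephalon sign depended on the coefficient. In the male sums, 226 of 532 genes with an unadjusted p under 0.05 between tradeoff and challenge males (42.48%) shared direction. Of all 16840 genes, 47.85% did so. In these sums rho was -0.05, and 4 of 20 genes with such a p in both comparisons shared direction. Without control male 304 the telencephalon share was 42.02% (46.5% of all genes), the diencephalon share was 55.5% (56.5% of all genes), and rho was -0.10 and 0.13, so the sign of rho in the telencephalon turned on this male.

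**Figure D5:**
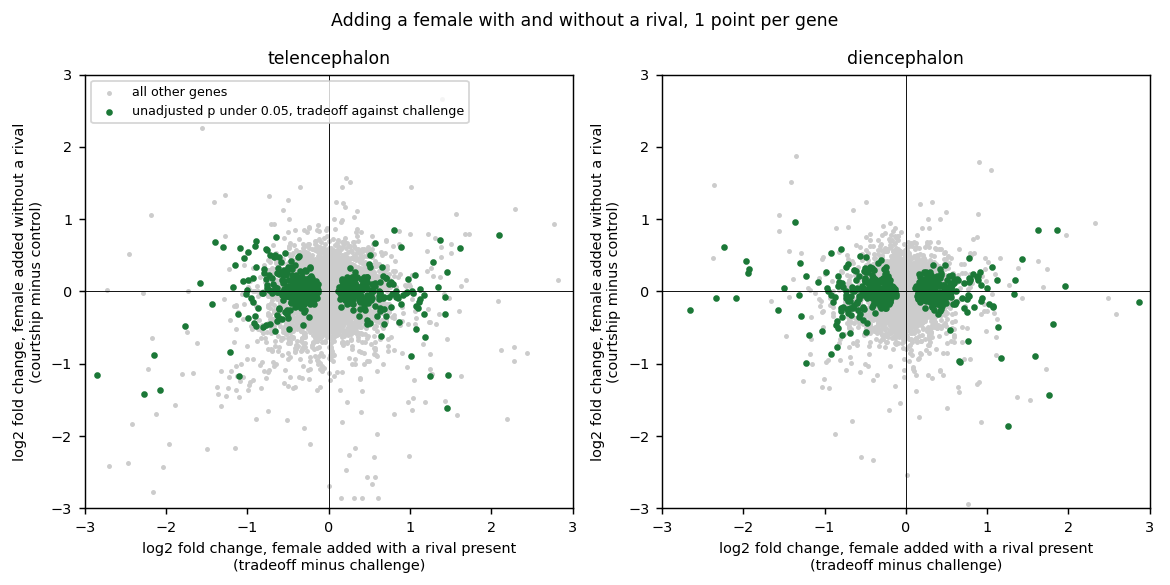
Log2 fold change when a female was added to a rival (x axis, tradeoff minus challenge) and when a female was shown alone (y axis, courtship minus control), 1 point per gene of at least 1 CPM; 31 telencephalon and 13 diencephalon genes lie outside the axes. The coloured genes with an unadjusted p under 0.05 on the x axis spread above and below 0 on the y axis, with 47.7% and 50.4% in the same direction.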

How the data were processed

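The submitters' processing notes name STAR and HTSeq; the sources used here give no version, genome build, annotation or strand setting. What the authors deposited are unnormalized read counts for each gene model. The 5 summary rows of a file were left out of every library size and every test of genes. They were used only for the shares of reads assigned to genes, outside features, ambiguous or not unique. Reads carry no molecular identifier and so are not independent molecules. In the gene tests of a region and of the male sums, p-values rest on the spread between males. The main interaction fit treated both libraries of a male as separate replicates.

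Tests used edgeR 4.0.16 in R 4.3.3 (TMM factors, filterByExpr, robust quasi-likelihood F test, Benjamini-Hochberg at 0.05 over all genes tested). Each region was fitted with its 17 libraries, male sums with 17 males, and the interaction with 34 libraries. DESeq2 1.42.0, limma 3.58.1 voom, other factors, no filter, fewer samples and left-out males were alternatives. Standard errors are the log2 fold divided by the square root of F. The pipeline was tested on simulated counts. Of 32 pairs of libraries of a group, none agreed within sampling noise (chi-square per degree of freedom 17.5 to 102).

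Both regions come from the same male, so the numbers pair the libraries. After subtraction of group means, the telencephalon and diencephalon of a male correlated at 0.207 to 0.586 over 16261 genes (9 of 9 males above 0.1; median of different males -0.0856). That subtraction itself pulls correlations between different males of a group below 0 when those within a male are above 0. Tradeoff and challenge males are different fish, so a block applies to the interaction only.

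The text names the 2 genes of each direction with the lowest p in each test, with a mean of at least 1 CPM; others are given as chosen after their values were seen. The genes marking a region had to be over 4-fold apart in at least 7 of 8 control and courtship males and to reach 10 CPM, a rule set after the data had been examined. The members, lists and rules were chosen with earlier results of these data known.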

Additional observations from a re-analysis of the deposited data

Results flagged for a closer look

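In 106 sets of a measure in the tradeoff or challenge libraries of a region, 7 held a value far from the rest of its group; chance gives about 1 in 20 for measures that were not chosen by their values. The tradeoff males were flagged in 3 sets, all in the telencephalon. ENSGACG00000000639 was at 5.13 CPM in male 306 and at most 4.01 CPM in the others, the library of male 306 held 30682988 gene counts (at most 25426404 in the others), and male 321 had a summed level of 3298 CPM of the diencephalon genes (at most 782 CPM).

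In the challenge males, ENSGACG00000007675 was at 5.50 CPM in the telencephalon of male 322 (at most 2.59 CPM in the others), and the median of the diencephalon genes was 8.47 CPM there (at most 3.27 CPM). In the diencephalon, ENSGACG00000015999 was at 20.4 CPM in male 317 (at most 15.2 CPM) and ENSGACG00000020760 at 10.6 CPM in male 298 (at least 15.9 CPM).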

How the results depend on the processing

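edgeR called 0 genes in each region, in the male sums and in the interaction with each male left out in turn (0 to 0 genes), without males 298 and 321 and, chosen after seeing the data, without males 298 and 322. With the position between regions as a covariate, also added later and run for each region only, it called 0 too. limma voom, run once per comparison with all males, called 0. DESeq2 called 2 genes in the telencephalon, 1 in the diencephalon and 4 in the interaction. Genes at an unadjusted p under 0.05 with 1 male left out ran from 539 to 861 (telencephalon), from 537 to 944 (diencephalon) and from 180 to 426 (interaction), with 426 without challenge male 298. With the replicate block of the male the interaction had 0 calls and 507 such genes, and it changed no call. Without challenge males 298 and 322, the telencephalon had 965 such genes. The low-count filter was applied anew whenever males were left out, so the number of genes tested can differ between these counts. The correlation between regions ran from 0.268 (without challenge male 298) to 0.518 (without tradeoff male 306) with 1 male left out and from 0.314 to 0.413 otherwise. No gene named by rule changed direction in its own test under the alternatives run. Leaving out control male 304, also chosen after seeing the data, gave 0 calls and 697 and 689 such genes by region. No paired analysis was possible within a region because tradeoff and challenge males share no number. Of the 3 abundance classes compared, genes of 1 to 10 CPM had the widest intervals; depth was not varied.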
